A study of Mus musculus with 6 samples.

Results

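The genes described here are the cadherins and protocadherins, with the related Celsr and Fat genes, and the data are regions of TERT signal on chromatin assigned to them. Members were all genes whose symbol in the deposited region lists begins with Cdh, Pcdh, Celsr or Fat in the forms used for this superfamily, so that cadherin-related receptors, calsyntenins and desmosomal cadherins were left out. A RefSeq gene table of the same build holds 100 such genes, of which 42 lie outside the protocadherin clusters and 58 are clustered protocadherins. Of these 100, 42 were named by at least 1 region, 37 outside the clusters and 5 within them, among 15356 genes named in all. They held 253 of the 41527 regions.

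TERT, the catalytic subunit of telomerase, was mapped by CUT&Tag, an assay that tethers a transposase to antibody-bound protein so that nearby DNA is cut and tagged. Primary neurons were cultured from the cerebral cortex and hippocampus of C57BL/6 mouse embryos taken at embryonic days 15 to 18, and nothing in the labels says whether the samples were separate cultures. Neurons in 3 samples received vehicle (dimethyl sulfoxide), which a label field calls untreated, and neurons in 3 samples received 2 µM BIBR1532, a small-molecule inhibitor of telomerase, for 24 h. The 3 libraries of each condition had been combined before the lists were made, so each condition is 1 measurement, no value has a replicate error, and no difference between the conditions could be tested.

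A list of 6812 common regions held signal in both conditions, a list of 16153 regions held more signal in the condition taken as BIBR1532, and a list of 18562 regions held more in the condition taken as vehicle. That direction rests on the order of the conditions in the names of the lists and is likely, not stated. Regions of the last 2 lists are called condition-specific, and each region was assigned by the authors to the gene whose start of transcription was nearest. A region therefore has no measured link to its gene, and sequencing depth is unknown from the lists. Common promoter regions were present at 1 of 10 neuronal marker genes (Snap25), against 14.2% of all protein-coding genes. They were present at 0 of 5 marker genes each of astrocytes, oligodendrocyte lineage, microglia and endothelium. With so few marker genes, these lists did not check the labelled cell type.

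Classical cadherins are calcium-dependent adhesion proteins that bind like molecules on the facing cell and anchor to actin through catenins. Non-clustered protocadherins are adhesion proteins with graded and regional expression in the developing brain. Clustered protocadherins are transcribed from arrays of alternative promoters, chosen in different combinations by single neurons, which gives each neuron a surface identity.

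Most promoter windows found for members overlapped no region, and the windows printed here are among those that did. The 250 bases before the annotated start are printed 5′ to 3′ on the gene's strand, from RefSeq on GRCm38.p6, with the bases inside a deposited region in capitals. The Pcdh17 window (chr14:84443313-84443562, plus strand) and the Cdh22 window (chr2:165234738-165234987, minus strand) are shown for their common regions. The Cdh6 window (chr15:13173676-13173925, minus strand) is shown for a vehicle region next to a common region further upstream, and the Pcdh10 window (chr3:45378148-45378397, plus strand) for a BIBR1532 region across its start.
Pcdh17: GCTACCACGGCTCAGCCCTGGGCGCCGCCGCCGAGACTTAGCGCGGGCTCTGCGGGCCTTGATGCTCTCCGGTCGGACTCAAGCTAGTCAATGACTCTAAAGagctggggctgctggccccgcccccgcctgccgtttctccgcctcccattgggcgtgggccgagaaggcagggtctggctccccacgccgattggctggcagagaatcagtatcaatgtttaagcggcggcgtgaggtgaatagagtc
Cdh22: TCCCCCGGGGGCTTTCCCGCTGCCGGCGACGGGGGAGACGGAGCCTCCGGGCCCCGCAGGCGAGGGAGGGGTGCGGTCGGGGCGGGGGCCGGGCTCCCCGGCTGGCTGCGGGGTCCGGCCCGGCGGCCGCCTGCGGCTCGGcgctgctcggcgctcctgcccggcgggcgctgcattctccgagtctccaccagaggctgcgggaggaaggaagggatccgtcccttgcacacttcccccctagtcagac
Cdh6: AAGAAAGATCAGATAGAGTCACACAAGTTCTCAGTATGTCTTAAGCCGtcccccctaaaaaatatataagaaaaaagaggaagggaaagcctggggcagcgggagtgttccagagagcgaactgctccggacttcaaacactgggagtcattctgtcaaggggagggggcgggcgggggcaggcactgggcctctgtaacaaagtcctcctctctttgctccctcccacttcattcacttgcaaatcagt
Pcdh10: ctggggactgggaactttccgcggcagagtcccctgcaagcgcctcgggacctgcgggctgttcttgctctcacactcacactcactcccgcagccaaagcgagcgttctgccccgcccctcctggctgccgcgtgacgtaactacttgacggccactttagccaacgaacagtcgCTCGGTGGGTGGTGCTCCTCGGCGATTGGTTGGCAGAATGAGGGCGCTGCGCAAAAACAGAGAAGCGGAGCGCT
The region covered 102 bases of the Pcdh17 window, 141 bases of the Cdh22 window, 48 bases of the Cdh6 window and 74 bases of the Pcdh10 window. The Cdh22 window was rich in CpG, with 77.6% G or C and 30 CpG dinucleotides, while the Cdh6 window had 51.2% and 6. The Pcdh17 window held 64.8% and 21, and the Pcdh10 window 63.2% and 22. Windows were found for 28 of the 42 genes outside the clusters, including Celsr3 and Pcdh19, which no region named. Over these 31 windows the median was 58.0% and 11 CpG dinucleotides. It was 52.4% and 6 over all 32851 windows of this length in the table. The letters GGGCGG, a GC box on either strand, stood in 10 of the 31 windows (32.3%) and in 32.7% of all windows. They stood in the windows of all 4 genes with a common promoter region, namely Pcdh17, Cdh6, Cdh22 and Cdh24, and in Cdh22 the match, 171 bases before the start, lay inside the region. The telomeric repeat unit TTAGGG, on either strand, stood in 2 of the 31 windows (6.45%), those of Cdh6 and Cdh12, against 9.32% of all windows. The Cdh6 match, 198 bases before the start, lay just outside the vehicle region. The E box CACGTG stood in 1 window, that of Cdh15, against 6.02% of all.

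Signal shared by both conditions was found at the promoters of 4 members. A common region at a promoter, the class around a start site, was present for 4 of the 99 protein-coding members. That is 4.04% (95% exact binomial interval 1.11% to 10.0%, counting error only). The percent with a common promoter region was 14.2% of 21887 protein-coding genes, above that interval. Of the 99 members, 57 are clustered genes that overlap, so their counts are not independent. All 4 members with such a region lie outside the clusters, which makes 9.52% of 42 genes (interval 2.66% to 22.6%). That interval holds the 14.2% of all protein-coding genes. A common region of any class was present for 13 members, 12 of them outside the clusters (28.6%, against 23.9% of protein-coding genes). Of the 14 common regions of members, 28.6% were at a promoter (interval 8.39% to 58.1%) and 7 of them were in an intron, while 51.9% of all common regions were at a promoter and 18.3% in an intron.

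The promoters with shared signal belonged to 3 type II classical cadherins and 1 delta-2 protocadherin. Pcdh17, a protocadherin of corticobasal ganglia circuits, had a common region of 346 bp (chr14:84443069-84443414) centred 322 bp before the start, with an authors' score of 0.239. Cdh6, a type II cadherin that marks subsets of neurons and projections, had one of 210 bp (chr15:13174036-13174245) centred 465 bp before the start, with a score of 0.215. Cdh24, another type II cadherin, had one of 252 bp (chr14:54641608-54641859) centred 369 bp before the start, with a score of 0.0157. Cdh22, a brain-expressed type II cadherin, had one of 166 bp (chr2:165234847-165235012) centred 192 bp before the start, with a score of 0.0132. The first pair of scores lay above the 0.110 median of all common regions and the second pair below it. The common regions of Cdh6 and Cdh24 lay inside the gene body, since those genes begin further upstream than the annotated start used.

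Beside 3 of these 4 common promoter regions lay a vehicle region, and beside none a BIBR1532 region, when the gap allowed was 1 kb. The gap was 20 bp at Cdh6, where the vehicle region (138 bp, score 1.31) lay between the common region and the start. It was 264 bp at Pcdh17, where the vehicle region (187 bp, score 3.22) lay further upstream, and 519 bp at Cdh24, where the vehicle region lay in intron 1. Over all 3533 common promoter regions, 824 (23.3%) had a vehicle region and 778 a BIBR1532 region within 1 kb. With 4 regions, the count of 3 has an interval of 19.4% to 99.4%, which holds that share.

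The other 10 common regions lay away from promoters. Fat3, an atypical cadherin that shapes neuronal dendrites, had one in intron 1, 1507 bp after its start. Pcdh10, a delta-2 protocadherin involved in axon growth and synapse removal, had one in intron 3, 8179 bp after its start. Cdh13, a cadherin held to the membrane by a lipid anchor, had one in intron 1, and Cdh4, or R-cadherin, had one in intron 2. Pcdh15, a component of the tip links of hair cells, had one in intron 9 inside a LINE repeat. Cdh11, a type II cadherin of mesenchyme and brain, had one 80.1 kb upstream. Cdh15, the muscle cadherin, had 2, at 6.48 and 31.1 kb upstream, the farther one in an intron of another gene. Pcdh20 had one 348 kb beyond its start, and Pcdhb1, the first gene of the beta cluster, had one 47.0 kb upstream.

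**Figure D1:**
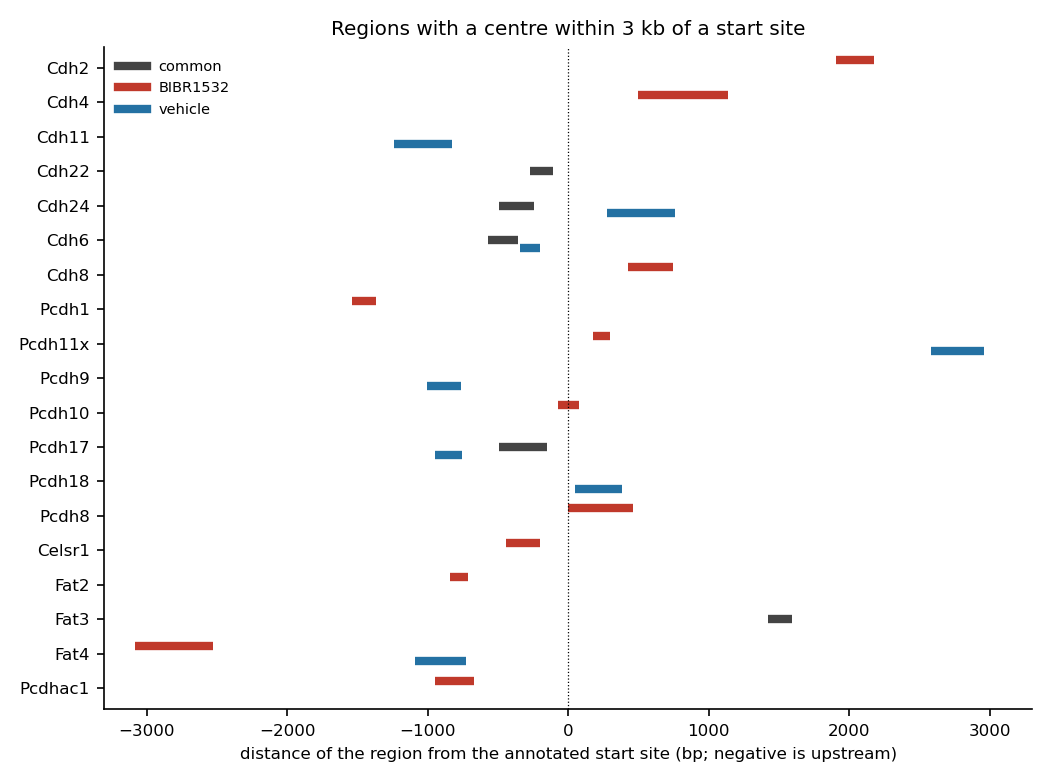
Position of each region whose centre lies within 3 kb of the annotated start of a member (x axis, bp; negative values are upstream), with bars drawn at the width of the region and coloured by list. Vehicle regions flank the common regions of Cdh6, Cdh24 and Pcdh17, and a BIBR1532 region crosses the start of Pcdh10.

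For promoter regions found in 1 condition, the intervals of the members' gene shares held the shares over all protein-coding genes. A BIBR1532 promoter region was present for 5 of 99 members (5.05%, interval 1.66% to 11.4%), against 6.89% of protein-coding genes. A vehicle promoter region was present for 4 (4.04%, interval 1.11% to 10.0%), against 7.37%. Outside the clusters, each list had such a region for 4 of 42 genes (9.52%, interval 2.66% to 22.6%). Counted by region, promoters made up 9 of the 239 condition-specific regions of members (3.77%, interval 1.74% to 7.03%). They made up 10.2% of all 34715, which lies above that interval.

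The BIBR1532 promoter regions were at Pcdh10, Celsr1, Cdh8, Fat2 and Pcdhac1. The region at Pcdh10 (chr3:45378324-45378473, 150 bp) was centred on the start, and its score of 1.72 was low. A second BIBR1532 region of Pcdh10 lay in the gene, 992 bp from its common region, and no vehicle region was assigned to it. Celsr1, a planar polarity cadherin, had a region of 238 bp (chr15:86033981-86034218) centred 322 bp before its annotated start, with a score of 5.43. It lay inside the gene body, since the gene begins further upstream. The Cdh8 region (chr8:99415726-99416045, score 7.12), 586 bp after the start of this cortical type II cadherin, was annotated to the promoter of a non-coding transcript. Fat2, known from the cerebellum, had a region of 129 bp (chr11:55312972-55313100) at 779 bp before an annotated start within the gene. This region therefore lay inside the gene body. Pcdhac1, a C-type protocadherin of the alpha cluster, had one 812 bp before its start, with a score of 8.03. Outside the promoter class, Cdh4 had a BIBR1532 region on a CpG island 819 bp after its start (score 4.96), and Pcdh8 one in exon 1 (score 2.54).

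The vehicle promoter regions were at Cdh6, Pcdh17, Pcdh9 and Fat4. Those of Cdh6 and Pcdh17 were the ones beside common regions. Pcdh9, a delta-1 protocadherin of cortical neurons, had a region of 242 bp (chr14:93891443-93891684) 884 bp before its annotated start, with a score of 3.05. The Pcdh9 region lay inside the gene body, since that gene begins further upstream. Fat4, an atypical cadherin that binds Dchs1 in planar polarity and growth control, had one of 366 bp (chr3:38885851-38886216) with a score of 8.06. It lay 907 bp before the annotated start used, but inside the gene body, since the gene begins further upstream. A BIBR1532 region with a score of 10.9 lay 1441 bp upstream of it, so signal differed in both directions within a short stretch before that annotated start. Pcdh18, a delta-2 protocadherin, had a vehicle region in its 5′ UTR, 216 bp after the start (score 5.23), and Cdh11 had one 1035 bp upstream.

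Across all classes, condition-specific regions were assigned to most members outside the clusters. At least 1 such region was assigned to 37 of those 42 genes (88.1%, interval 74.4% to 96.0%), against 51.9% of protein-coding genes. BIBR1532 regions were assigned to 32 of them (76.2%, against 34.5%) and vehicle regions to 31 (73.8%, against 37.5%). The 5 genes outside the clusters with no region were Cdh3, or P-cadherin, Cdh16, or kidney cadherin, Celsr3, needed for axon tracts, Pcdh12, found in vessels, and Pcdh19, the gene of an X-linked epilepsy. A vehicle region lay within the body of Pcdh19 but was assigned to another gene.

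Gene length moved with these counts. Of the 23 members outside the clusters of at least 100 kb, 22 had a condition-specific region (95.7%), against 85.6% of 2429 protein-coding genes of that length. Of the 19 shorter ones, 15 had one (78.9%, interval 54.4% to 93.9%), against 47.7% of shorter protein-coding genes. Counted by position inside the gene body, whichever gene a region was assigned to, the long members held 1.43 condition-specific regions per 100 kb (95% Poisson interval 1.21 to 1.68) and all long protein-coding genes 1.58. The median per long gene was 1.57 in members and 1.51 over all long genes, so within the gene bodies the density was near that of other long genes.

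**Figure D2:**
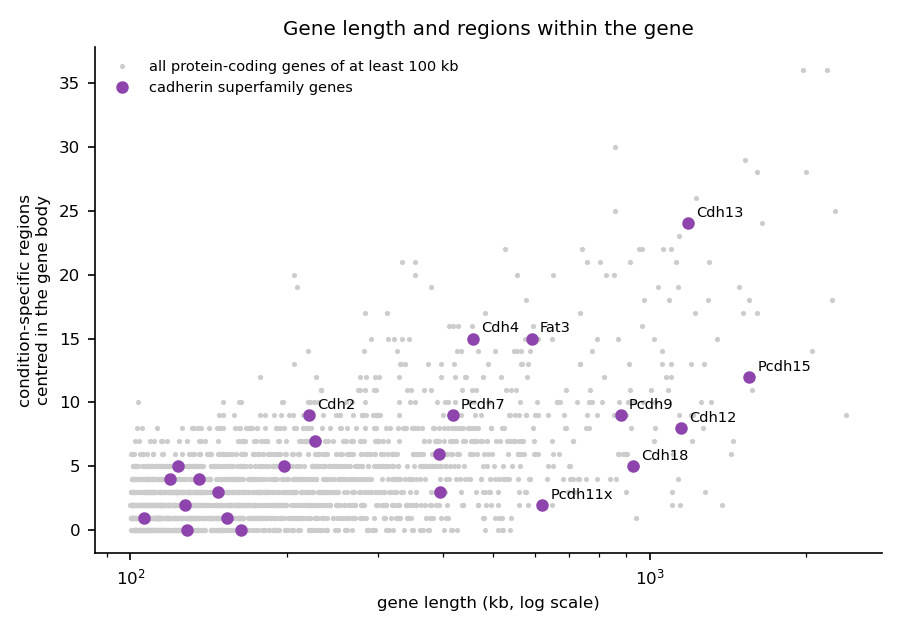
Gene length (x axis, kb, log scale) and number of condition-specific regions centred in the gene body (y axis) for members outside the clusters of at least 100 kb and all 2429 protein-coding genes of that length. The members lie within the spread of the other long genes, from Cdh13 with 24 regions to Cdh7 and Cdh9 with 0.

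The longest members differed widely in the number of regions inside them. Cdh13, of 1185 kb, held 24 in its body, or 2.03 per 100 kb. Cdh12, a type II cadherin of 1150 kb, held 8, or 0.696 per 100 kb, and Pcdh15, of 1554 kb, held 12, or 0.772. Cdh4 held 15 in 457 kb and Fat3 held 15 in 592 kb. Pcdh11x, an X-linked delta-1 protocadherin of 620 kb, held 2, or 0.322 per 100 kb. Cdh7, Cdh9 and Cdh19, type II cadherins, held none, and all of their regions lay outside the gene.

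The condition-specific regions of members were far from start sites. Their median distance to the assigned start was 157 kb, against 25.2 kb over all condition-specific regions, and 61.5% lay beyond 100 kb (interval 55.0% to 67.7%), against 21.5%. Beyond 500 kb lay 19.2% and 2.78%. Within 10 kb lay 11.7%, against 33.3%. By position, 51.5% lay in the gene body, 25.5% upstream and 23.0% downstream. Intergenic regions made up 47.7% and introns 45.2%, against 38.6% and 43.9% over all regions. The assigned gene is the nearest start, so a region 1 Mb away is a neighbour only for want of a closer gene, and these far regions were not shown to act on the gene named.

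**Figure D3:**
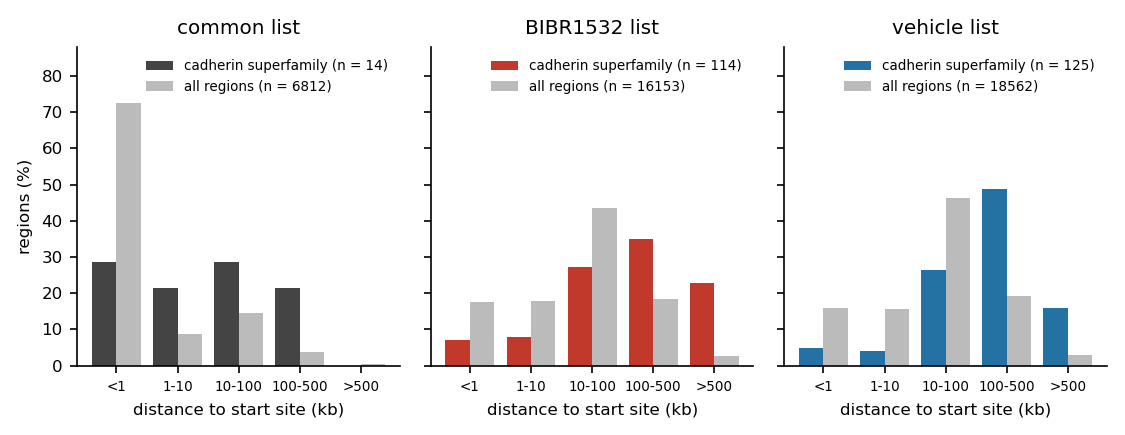
Share of regions (y axis, percent) by distance to the assigned start site (x axis, kb) in each list, for members in colour and all regions in grey. In every list a smaller share of the members' regions than of all regions lies within 1 kb, and a larger share lies between 100 and 500 kb.

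The total share of repeats was close to that over all regions. A repeat was the annotated feature of 25.9% of members' condition-specific regions and 25.4% of all. LINE elements made up 11.3% (interval 7.58% to 16.0%), against 7.34%, which lies just below the interval. SINE elements made up 4.18% (interval 2.02% to 7.56%), against 7.45%. LTR elements made up 4.60% (interval 2.32% to 8.09%), against 6.14%. The SINE and LTR intervals hold the shares over all regions. The median width of BIBR1532 regions was 262.5 bp, against 247 bp over all, and that of vehicle regions 281 bp, against 244 bp. Of the members' condition-specific regions, 24.3% were at least 500 bp wide, against 15.5%. Many regions share a single score, the most frequent one of each list, 6.34 for BIBR1532 and 5.19 for vehicle. Such regions made up 57.3% of members' regions (interval 50.8% to 63.7%) and 48.6% of all, which also lies below the interval.

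The balance between the conditions was that of the lists as a whole. Members held 114 BIBR1532 regions and 125 vehicle regions, so that BIBR1532 made up 47.7% (interval 41.2% to 54.2%), against 46.5% over all condition-specific regions. More BIBR1532 than vehicle regions were assigned to 16 genes, more vehicle regions to 18, and equal numbers to 7. Within 10 kb of a start the share was 60.7% of 28 regions (interval 40.6% to 78.5%), against 49.3% over all such regions, and the interval holds the latter value. Without the regions at the most frequent scores it was 53.9% of 102 regions, against 48.2%.

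**Figure D4:**
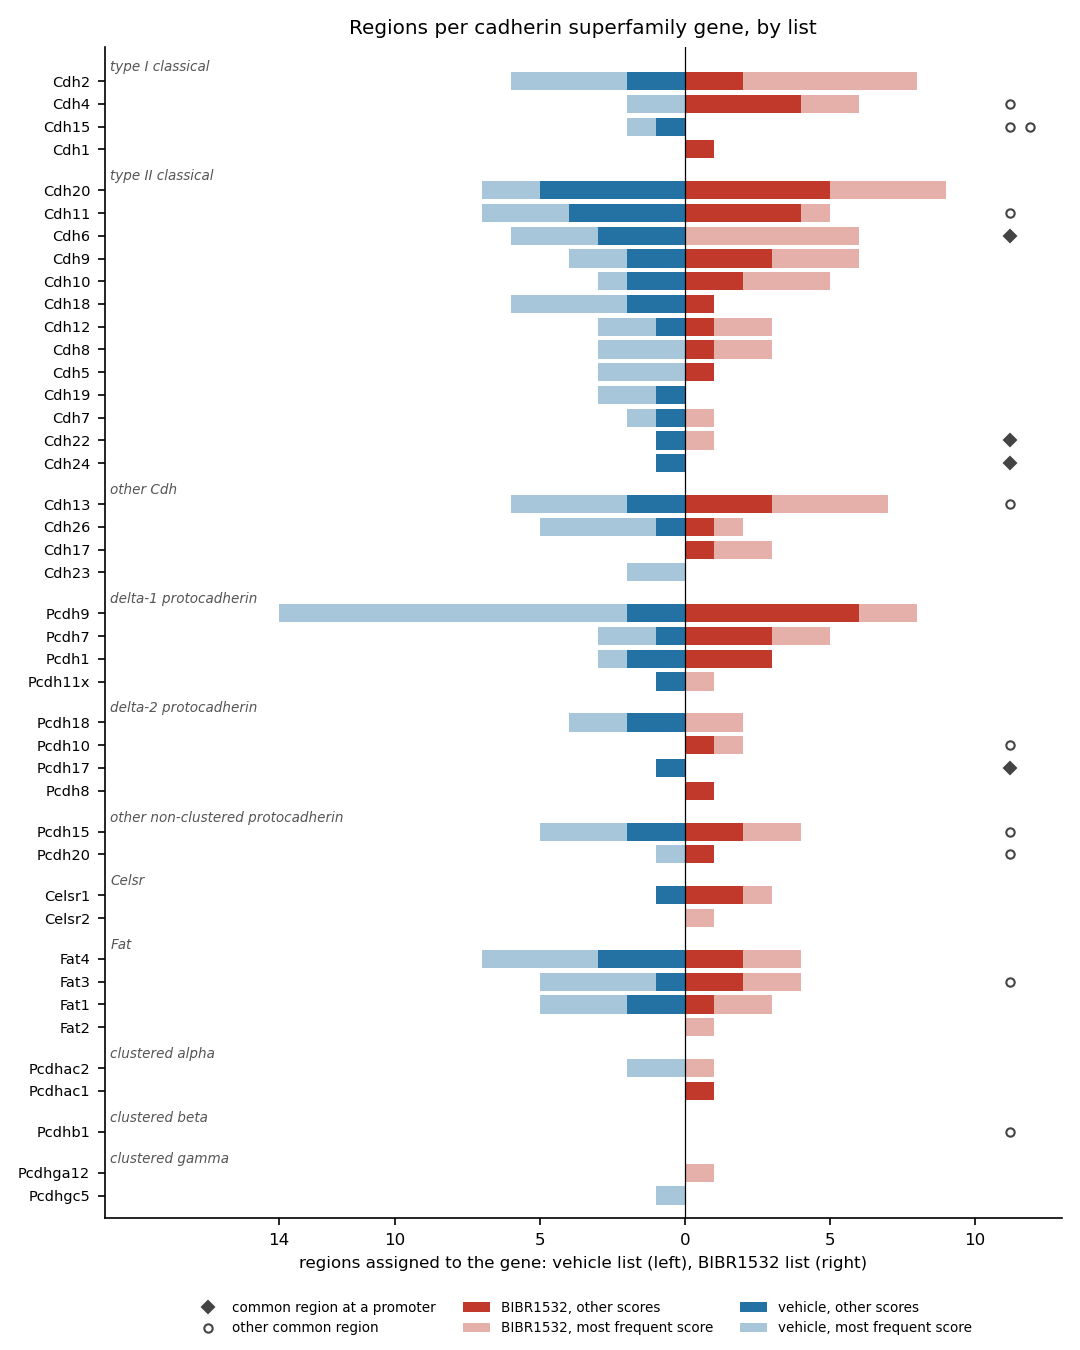
Number of regions assigned to each named member (x axis), vehicle to the left and BIBR1532 to the right, with paler bars for regions that carry their list's most frequent score and symbols for common regions. Pcdh9 has the most regions, and the excess of vehicle over BIBR1532 regions there lies in the paler part.

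Among type I classical cadherins, 4 of 5 genes were named, with 15 BIBR1532, 10 vehicle and 3 common regions. Cdh2, or N-cadherin, the main classical cadherin of neuronal junctions and synapses, had 8 BIBR1532 and 6 vehicle regions and no common region. Of these 14, 9 lay in introns 1 and 2 and the others beyond the end of the gene. Cdh4 had 6 BIBR1532 and 2 vehicle regions, the largest excess of BIBR1532. The 6 lay between 819 bp and 122 kb after the start and the 2 vehicle regions at 198 and 248 kb. The body of Cdh4 held 10 BIBR1532 and 5 vehicle regions in all, of which 4 and 3 were assigned to other genes. Cdh1, or E-cadherin, the epithelial cadherin, had a single BIBR1532 region in intron 2 with a score of 8.05. Cdh15 had 2 vehicle regions, each at a transcript end.

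All 13 type II classical cadherins were named, with 41 BIBR1532, 49 vehicle and 4 common regions. Cdh20 had 9 BIBR1532 and 7 vehicle regions, and it held the highest score of members in each list. These were 14.5 for a BIBR1532 region of 2937 bp, 1095 kb upstream, and 11.9 for a vehicle region of 839 bp, 286 kb upstream. Cdh11 had 5 BIBR1532 and 7 vehicle regions, of which only 1 lay in the gene body. Cdh6 had 6 of each, and all 6 BIBR1532 regions carried the most frequent score. Cdh9 had 6 BIBR1532 and 4 vehicle regions, none of them in the gene.

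Cdh10 had 5 BIBR1532 and 3 vehicle regions, and a vehicle region in intron 1 scored 11.8. Cdh12 had 3 of each, with a BIBR1532 score of 13.4 in intron 8. Cdh18 had 1 BIBR1532 and 6 vehicle regions, and its BIBR1532 region, in intron 10, lay 1060 bp from a vehicle region. Cdh19, a cadherin of the Schwann cell lineage, had 3 vehicle regions and no other, including the widest of the members' vehicle list at 6478 bp. Cdh7 had 1 BIBR1532 region, of 9486 bp and 893 kb upstream, and 2 vehicle regions. Cdh5, the endothelial VE-cadherin, had 1 and 3, none of them in the gene. Cdh8 had 3 of each, Cdh22 had 1 of each, and Cdh24 had 1 vehicle region.

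Other Cdh genes held 12 BIBR1532, 13 vehicle and 1 common region. Cdh13 had 7 and 6, and a further 12 condition-specific regions inside its body were assigned to other genes. Cdh17, an intestinal and liver cadherin, had 3 BIBR1532 and 0 vehicle regions, in introns 1 and 9 and in the 3′ UTR (score 9.42). Cdh26 had 2 BIBR1532 and 5 vehicle regions, and Cdh23, the partner of Pcdh15 in tip links, had 2 vehicle regions.

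Delta-1 protocadherins held 17 BIBR1532 and 21 vehicle regions and no common region. Pcdh9 had 8 BIBR1532 and 14 vehicle regions, the most of any member, spread from 916 kb before to 1661 kb after its start. Of its 14 vehicle regions, 12 carried the most frequent score, while 6 of its 8 BIBR1532 regions did not. Without those scores the order turned, with 6 BIBR1532 and 2 vehicle regions. Pcdh7 had 5 and 3, Pcdh1 had 3 and 3, and Pcdh11x had 1 and 1. The vehicle region of Pcdh11x, on a CpG island 2773 bp after the start, had a score of 10.0.

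Delta-2 protocadherins held 5 BIBR1532, 5 vehicle and 2 common regions. Pcdh18 had 2 BIBR1532 and 4 vehicle regions, Pcdh10 had 2 and 0, Pcdh8 had 1 and 0, and Pcdh17 had 0 and 1. Among other non-clustered protocadherins, Pcdh15 had 4 and 5, with a vehicle score of 10.7, and Pcdh20 had 1 and 1, with a BIBR1532 score of 12.9.

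The atypical cadherins followed. Fat genes held 12 BIBR1532, 17 vehicle and 1 common region. Fat1 had 3 and 5, and it held the widest BIBR1532 region of members, 18617 bp, at 547 kb upstream and with the list's most frequent score. A vehicle region of 5383 bp lay 29.9 kb before its start. Fat4 had 4 and 7, Fat3 had 4 and 5, and Fat2 had 1 and 0. Celsr1 had 3 BIBR1532 and 1 vehicle region, and Celsr2 had 1 BIBR1532 region.

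Regions of opposite direction lay within 5 kb of each other at several members, about as often as over all regions. Of 23 pairs of neighbouring member regions within 5 kb, 15 joined a BIBR1532 with a vehicle region and 4 joined regions of 1 list. A vehicle region lay within 5 kb of 13.2% of members' BIBR1532 regions (interval 7.56% to 20.8%), and of 13.1% of all BIBR1532 regions. Within 1 kb the shares were 2.63% (3 of 114) and 5.05%. The 3 such pairs of members had gaps of 406 bp at Pcdh1, 614 bp at Cdh26 and 643 bp at Celsr1.

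Few of the clustered protocadherins were named by a region. Across 911.6 kb, 7 regions were assigned to the 58 genes, of which 3 were BIBR1532, 3 vehicle and 1 common. A condition-specific region was assigned to 4 of the 57 protein-coding clustered genes (7.02%, against 51.9% of all protein-coding genes). A common promoter region was assigned to 0 of 57, which allows up to 6.27% (exact upper limit), against 14.2%. These genes share constant exons and overlap, so their counts are not independent and each region goes to only 1 of them. Over the merged gene bodies the density was 1.17 per 100 kb (interval 0.428 to 2.54), and the interval holds the 1.87 of all protein-coding genes.

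In the alpha cluster, a BIBR1532 region lay at the promoter of Pcdhac1, another 8308 bp upstream of Pcdhac2, and 2 vehicle regions at the shared transcript end. The common region assigned to Pcdhb1 lay between the alpha and beta clusters, 287.7 kb from the first start, and the 22 genes of the beta cluster had no other region. In the gamma cluster, a BIBR1532 region was assigned to Pcdhga12 and a vehicle region to Pcdhgc5. The alternative promoters of the alpha genes before Pcdhac1, of the beta genes and of the gamma genes carried none of these regions.

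**Figure D5:**
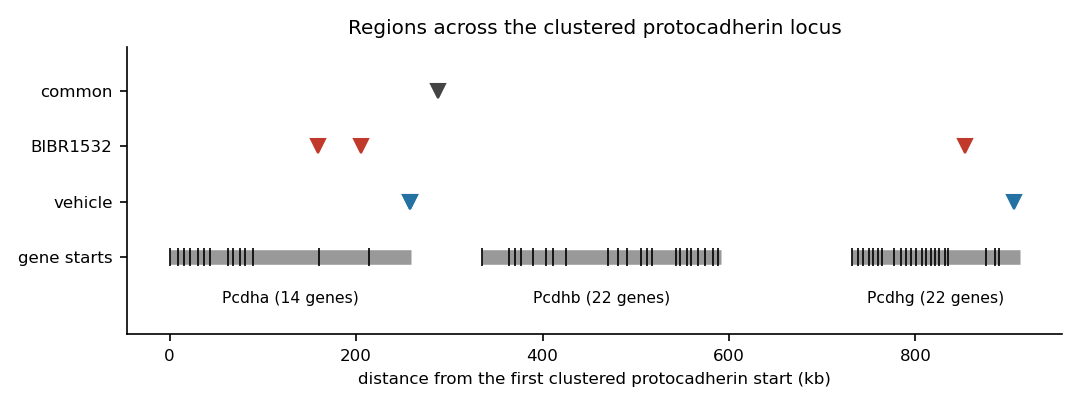
Regions across the clustered protocadherin locus (x axis, kb from the first gene start), with gene starts as ticks on grey cluster bars and 1 row of triangles for each list. Of the 7 regions, 2 vehicle regions at the end of the alpha cluster lie too close to be told apart at this scale.

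Genes that work with cadherins and protocadherins were counted in the same way. In a list of 30 catenins, linkers, proteases, polarity partners, chromatin factors and kinases, 28 were named by a region of any list. No share over all genes was computed for that count. A common promoter region was present for 10 of the 30, against 14.2% of protein-coding genes, with no interval computed. Among these 10 were the catenin genes Ctnna3, Ctnnd1 and Ctnnd2, the junction genes Jup, Vcl and Nectin3, the kinase gene Fyn and the WAVE subunit gene Wasf1. BIBR1532 regions numbered 37 and vehicle regions 52, so that 41.6% were BIBR1532, against 46.5% of all condition-specific regions. No interval was computed for this share, so no lean toward vehicle can be read from it. More vehicle regions were assigned to 12 of the 30 and more BIBR1532 regions to 7, while 5 had equal numbers and 6 had none. Beside the 6 of 30 with no condition-specific region, at least 1 such region was assigned to 51.9% of all protein-coding genes. The share was 85.6% for those of at least 100 kb, and several of the 30 genes are that long. Ctnnd2, or delta-catenin, had 7 of each, Ctnna2, or neuronal alpha-catenin, had 1 BIBR1532 and 5 vehicle regions, and Ctnnb1, or beta-catenin, had no region.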

How the data were processed

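CUT&Tag libraries of 6 samples were sequenced. Per the submitters' processing notes, CASAVA 1.8, Bowtie2, Picard, MACS2 2.1.2 and mm10 were used, with no role given for each. Per the file headers, the authors annotated the regions with annotatePeaks.pl on mm10. The 3 lists hold the authors' deposited score per region, with its scaling not given in the sources. The score served to rank and filter regions within a list.

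Only regions on the 19 autosomes, X and Y entered; 64 others were left out, none of them at members. No per-sample column was left unused. Genes were matched by ID to a RefSeq table (GRCm38.p6), which matched all 42 named members. Region starts were read as 1-based, and start sites implied by 16 of 17 regions within 3 kb lay within 1 base of those of the promoter table. Promoters were looked up for members off chromosome 18. Where a gene's strand was not known (57 of 100 members), body overlap had no added upstream 2 kb.

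No test was run. Intervals given with shares are exact 95% binomial intervals and those with densities are Poisson intervals, and they cover counting error only. Members and lists were chosen with earlier results of these data known. Genes named were every member with a common region or a promoter region, the 8 with most condition-specific regions, the 4 with the largest excess each way, the holders of the 3 highest scores and 3 widest regions in each list, and Cdh1, Cdh2, Pcdh9, Pcdh10, Pcdh19, Celsr3 and Fat3; others complete the families and were named after their values were seen. Alternatives were a score of at least 3, a width of at least 500 bp, merging within 1 kb, assignment within 10 kb or by gene body, a start window of 1 kb for promoters, and leaving out the most frequent scores, the clusters or the member with most regions. The shares beyond 10 kb, the gene length split at 100 kb and merged gene bodies were added after seeing the data. Counts and intervals came from pandas 2.3.3 with scipy 1.17.1 and numpy 2.4.6, under Python 3.11.15, and figures from matplotlib 3.10.9.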

Additional observations from a re-analysis of the deposited data

How the results depend on the processing

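The BIBR1532 share, the promoter share of common regions, the number of genes with a common promoter region, the number with a condition-specific region and the regions per 100 kb of summed gene length (1.45) were recomputed under 9 alternatives in all, where each applied, and 25 of 36 values stayed within the 95% interval of the main share or density, or within 1.5 times the main count. The widest of these moves was in the promoter share of common regions, from 28.6% to 57.1% of 7 regions within 10 kb. With regions of at least 500 bp, 0% of 2 common regions were at a promoter, 0 genes had a common promoter region, 24 genes had a condition-specific region and the density was 0.353. Within 10 kb, the BIBR1532 share was 60.7%, 21 genes had a condition-specific region and the density was 0.170. By gene body the count was 66 genes, since overlapping clustered genes share regions, and the density was 1.04. The density was 0.621 without the most frequent scores and 2.08 without the clustered protocadherins. Among the 8 genes with the largest excess, the BIBR1532 minus vehicle difference changed sign at Cdh10 (-2 with at least 500 bp, -1 by gene body), Cdh2 (-1 with at least 500 bp) and Pcdh9 (1 with at least 500 bp, 4 without the most frequent scores). The cause was not tested; the stricter settings hold fewer regions. No paired analysis was possible because each list pools the 3 libraries of a condition, and for the same reason no replicate could be left out.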

Other observations

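Some cadherin relatives outside the naming rule were also named by regions. Cdhr3, a cadherin-related receptor of airway epithelium, had 5 BIBR1532, 1 vehicle and 1 common region. The calsyntenin gene Clstn1, whose product acts in axonal transport and synapses, had 1 BIBR1532 and 3 vehicle regions, and Clstn3 had a BIBR1532 promoter region only. Dchs1 and Dchs2, which encode ligands of Fat proteins, had 1 and 2 vehicle regions. The desmosomal gene Dsc3 had 3 of each, and Ret, a receptor kinase with cadherin-like domains, had 1 BIBR1532 and 1 common region. These genes were chosen after their values were seen.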
